A study of Mus musculus with 8 samples.

Results

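The small RNAs examined here were the miRNAs of the rodent Sfmbt2 cluster, miR-297, miR-466, miR-467 and miR-669, as found in the RISC of mouse brain. The members were all mouse miRNA names that begin with one of these, with any letter, copy number or arm, and 46 of the 895 miRNA names in the table met this rule. They were carried by 267 of the 47204 distinct read sequences. The brains came from 8 female mice of a mixed C57BL/6J/SJL background, 4 labelled 5XFADtg/Rubicon het (het, 1 intact Rubicon allele) and 4 labelled 5XFADtg/Rubicon ko (ko, none). All 8 carried 5XFAD, a transgene that makes mouse brain form amyloid plaques, so no brain without amyloid served as control. Their age was given as 6 months for this comparison, but as 6 or 8 months for the Rubicon mice at large, and not per animal. Argonaute complexes were captured from cortex and hippocampus combined with a GW182 peptide, and the RISC-bound small RNAs (R-sRNAs) were sequenced. Levels are given as CPM, the reads of a sequence among 1000000 reads of its library. Fewer cells of a type and less RNA per cell cannot be told apart in such tissue.

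The large cluster is a feature of rodent Sfmbt2. Its many near-identical hairpins arose by local duplication inside an intron of Sfmbt2, a Polycomb group gene that is imprinted and expressed from the paternal allele in the placenta, where the cluster has its best known role. A miRNA hairpin is cut into a 5p and a 3p strand, of which the strand kept by Argonaute guides repression. The 6mer seed, positions 2 to 7 of the guide, sets which mRNAs are bound, and the seed viability score gives the viability of 3 mouse cell lines, on average, after transfection with an siRNA of that seed. A low score marks a toxic seed in Death Induced by Survival gene Elimination (DISE).

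Depth differed between the libraries, from 509839 reads in het replicate 1 to 19878054 in ko replicate 2, so that 3 reads corresponded to 5.79 CPM in the shallowest and 0.151 CPM in the deepest library. Both libraries over 5000000 reads were ko. The brain miRNAs miR-124-3p, miR-9-5p and miR-128-3p summed to between 145125 and 247446 CPM in every library. The 6 placental and stem cell miRNAs of the miR-290 cluster looked for as markers were not listed. The 4 epithelial miRNAs looked for summed to between 1845 and 6377 CPM in het and between 150.3 and 665.3 CPM in ko. The sum came mainly from miR-200a-3p, miR-200b-3p and miR-429-3p. For miR-205-5p the groups overlapped, at 2.75 to 18.8 CPM in het and 3.05 to 11.8 CPM in ko. The part of the difference in the sum in the results below was not tested.

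In the mouse genome (GRCm38, GENCODE M21), 71 of the 81 annotated member hairpins lay inside Sfmbt2 (chr2:10370510-10595253, plus strand). They spanned chr2:10466663-10518279, 51.6 kb, and all 71 were within intron 10 of the transcript Sfmbt2-201, with 0 overlapping an exon. The other 10 hairpins were on other chromosomes. Exact matches to member hairpins made up 89.9% of the cluster's CPM, and 0 sequences matched only member hairpins outside Sfmbt2. Annotated hairpins without a member name are not in these counts. Of those, 1 held the main read of miR-467a-5p exactly. Matches to more than 1 member hairpin made up 62.1% of the CPM and matches to a single hairpin 27.8%. Most levels below are therefore levels of a sequence that several copies can give and not of a gene copy. Such near-identical names share reads, and the level of each name depends on how the authors' pipeline assigned them.

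The most abundant read of each leading miRNA is shown first because the family is easiest to see in its letters, with the 6mer seed in capitals. All 5p strands shown but that of miR-669c-5p share the letters gcaugu. miR-467a-5p, miR-467b-5p and miR-467d-5p have the same seed, and the seeds of the others differ:
miR-467a-5p: uAAGUGCcugcauguauaugcg
miR-467b-5p: uAAGUGCcugcauguauau
miR-467d-5p: uAAGUGCgcgcauguauaugc
miR-467e-5p: aUAAGUGugagcauguauaugu
miR-669a-5p/miR-669p-5p: aGUUGUGugugcauguucaugucu
miR-669d-5p: aCUUGUGugugcauguauaugu
miR-669c-5p: aUAGUUGuguguggaugugugu
miR-297c-5p: aUGUAUGugugcauguacaugu
miR-466c-5p: gAUGUGUgugugcauguacau

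The 3p strands are rich in alternating a and c, and several of them have the same seed:
miR-669a-3p/miR-669o-3p: aCAUAACauacacacacacguau
miR-467d-3p: aUAUACAuacacacaccuacac
miR-467a-3p: aUAUACAuacacacaccuaca
miR-297b-3p/miR-297a-3p/miR-297c-3p: aUAUACAuacacacauacccau
miR-466a-3p/miR-466e-3p: aUACAUAcacgcacacauaaga
miR-466d-3p: uAUACAUacacgcacacauagu

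The motif GCAUGU, searched in the direction of the read, was present in 82.3% of the 5p CPM of the cluster, in 0% of its 3p CPM and in 0.0513% of the CPM of all other miRNAs. The motif CAUACAC was present in 95.0024% of the 3p CPM of the cluster, in 0% of its 5p CPM and in 0.139% of the CPM of all other miRNAs. G and U made up 67.9% of the bases of the 5p reads, and A and C made up 78.1% of the bases of the 3p reads. In other miRNAs these shares were 56.7% and 43.3%. The main read of miR-467b-5p is the first 19 bases of the main read of miR-467a-5p, so such short reads do not tell these names apart. The main read of miR-467a-5p matched 11 member hairpins exactly, that of miR-669a-5p/miR-669p-5p matched 14 and those of miR-669c-5p and miR-467d-5p matched 1 each. The main read of miR-466d-3p matched 0 member hairpins exactly.

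All members together were a small part of the RISC. They reached 702.7, 919.5, 594.0 and 670.9 CPM in het replicates 1 to 4 and 553.1, 717.5, 635.5 and 495.8 CPM in ko replicates 1 to 4. The het mean was 722 ± 140 CPM (SD, n = 4) and the ko mean 600 ± 96.8 CPM (SD, n = 4), and the groups overlapped. The highest library was het replicate 2, without which the het mean was 656 CPM and the difference narrowed from 121 to 55.4 CPM lower in ko. No test was made of this sum. For scale, the Mirg cluster, an imprinted miRNA cluster of chromosome 12 that is strongly expressed in brain, reached 33050 ± 3085 CPM in het and 31646 ± 1257 CPM in ko with 65 names. The miR-290 cluster, which shares a seed with miR-467a-5p, had 0 names in the table.

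**Figure D1:**
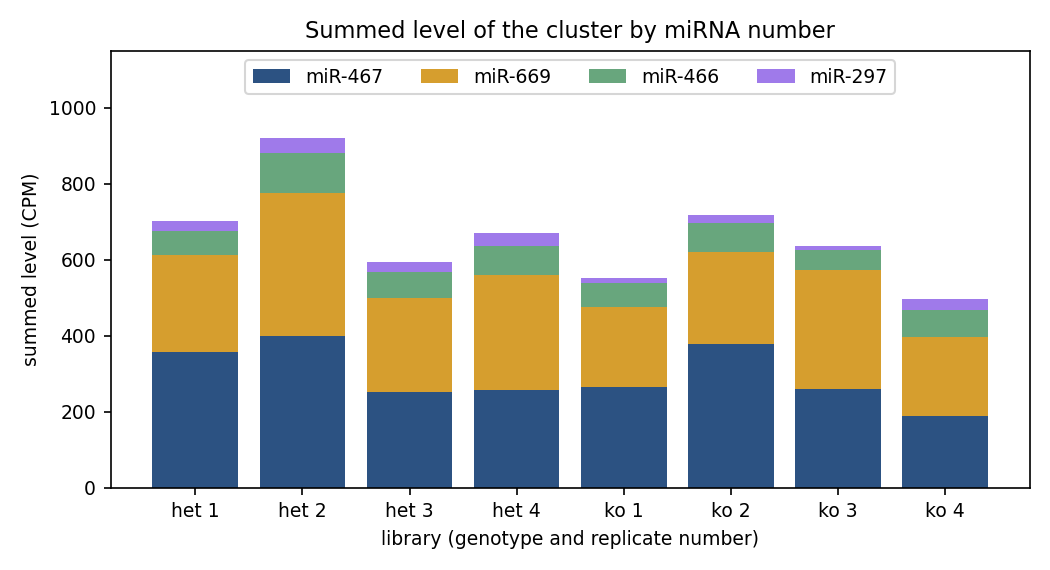
Summed level of cluster miRNAs in CPM (y axis, from 0) in each of the 8 libraries (x axis), stacked by miRNA number. The miR-467 and miR-669 blocks make up most of every bar, and the tallest bar is het replicate 2 at 919.5 CPM.

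By number, miR-467 and miR-669 carried most of the cluster. miR-467 averaged 294.6 ± 74.3 CPM (SD, n = 8) or 44.3% of the cluster and miR-669 averaged 269 ± 57.7 CPM or 40.8%. miR-466 averaged 72.2 ± 15.5 CPM, or 11.0%, although it had 14 of the names, and miR-297 averaged 25.1 ± 9.61 CPM, or 3.81%. The share of miR-467 ranged from 37.9% to 52.9% and that of miR-669 from 33.5% to 49.2%, so the order of these numbers changed between libraries. miR-669 was above miR-467 in het replicate 4, ko replicate 3 and ko replicate 4. miR-466 was above miR-297 in all 8 libraries.

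The level was concentrated in few names. The 3 most abundant, miR-467a-5p, miR-669a-3p/miR-669o-3p and miR-669c-5p, made up 49.6% of the cluster, and the 14 names that averaged 10 CPM or more made up 86.8%. A further 14 names were below 1 CPM on average, 20 names were detected in all 8 libraries and 9 in at most 2. Between 25 and 32 names were detected in a het library and between 25 and 46 in a ko library, and all 46 were found only in ko replicate 2, the deepest. Zeros were not confined to the shallowest libraries. miR-669i, named after its values were seen, was at 34.3 CPM in ko replicate 4 and at 0 in the deeper het replicate 2 and ko replicate 3.

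miR-467a-5p, the leading member and number 239 of all miRNAs by mean level, was at 225.9, 246.9, 137.1 and 151.7 CPM in het replicates 1 to 4 and at 130.9, 224.2, 145.7 and 33.3 CPM in ko replicates 1 to 4. Its lowest library was ko replicate 4, ko replicate 1 was also below all het libraries, and ko replicates 2 and 3 lay in the range of het. miR-669a-3p/miR-669o-3p was at 92.7, 171.3, 114.5 and 79.2 CPM in het and at 74.9, 108.0, 84.6 and 38.2 CPM in ko. Again ko replicate 4 was lowest and het replicate 2 highest, and the groups overlapped.

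miR-669c-5p, whose main read matched a single hairpin, was at 52.1, 86.0, 51.6 and 84.1 CPM in het and at 58.4, 36.9, 107.8 and 86.2 CPM in ko. The ko libraries held both its lowest and its highest value. miR-467e-5p was at 50.2, 29.6, 26.0 and 13.1 CPM in het and at 38.2, 44.7, 16.3 and 54.9 CPM in ko. Here ko replicate 4, the lowest library of miR-467a-5p, was the highest.

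Below these, miR-669a-5p/miR-669p-5p averaged 31.3 ± 8.76 CPM, miR-467b-5p 28.8 ± 13.8 CPM, miR-467d-5p 26.7 ± 12.6 CPM and miR-669d-5p 25.7 ± 12.3 CPM (SD, n = 8). Among the 3p strands, miR-466a-3p/miR-466e-3p averaged 23.6 ± 6.93 CPM, miR-467d-3p 21.6 ± 4.39 CPM, miR-466d-3p 19.3 ± 6.59 CPM and miR-297b-3p/miR-297a-3p/miR-297c-3p 13.5 ± 6.57 CPM. In this order, the step from miR-669c-5p to miR-467e-5p was larger than the SD of either over the libraries. No other step between neighbours, from miR-467a-5p down to miR-297b-3p/miR-297a-3p/miR-297c-3p, was larger than both their SDs.

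**Figure D2:**
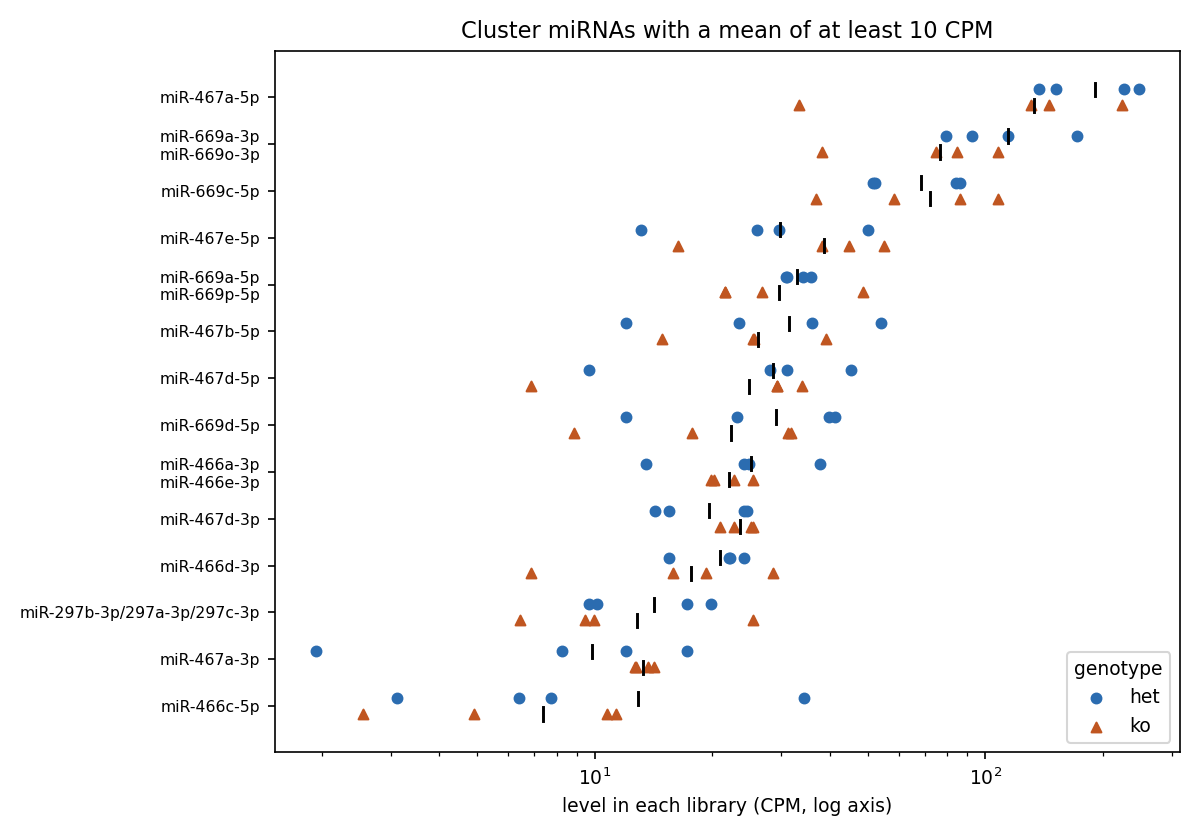
Level in CPM (x axis, log scale) of the 14 cluster miRNAs that averaged 10 CPM or more (y axis), with a point for each of the 4 het (circles) and 4 ko (triangles) libraries and a bar at each group mean. The het and ko points overlap for all 14, and a single het library stands apart for miR-466c-5p at 34.4 CPM.

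Which strand was loaded differed between the numbers. Over the whole cluster, 5p names made up 68.3 ± 8.55% of the CPM with a named arm in het and 67.7 ± 2.86% in ko (SD, n = 4), between 58.1% and 76.8% in single libraries. miR-467 was mostly 5p, at 87.4 ± 4.89% (SD, n = 8) and at least 79.2% in every library. miR-466 was mostly 3p, with 24.7 ± 12.5% of its CPM in 5p and at most 48.4% in any library. miR-669 was near an even split at 59.8 ± 11.95% 5p, from 44.8% to 78.0%. miR-297 ranged from 10.3%, in ko replicate 4, where it rested on 29 reads with a 95% Wilson interval from 3.58% to 26.4%, to 70.7% in het replicate 4. Intervals of this kind cover counting error only.

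Names of the same number also differed in their 5p share. miR-467a had 90.9 ± 8.52% of its CPM in 5p and more 5p than 3p in all 8 libraries. miR-467e had 95.2 ± 8.19% in 5p, and miR-467d had 52.4 ± 15.3%, with 5p above 3p in 6 of 8 libraries. The share of miR-467d ranged from 21.2% to 66.4% in single libraries, and the 3p name of miR-467e was at 1.76 CPM. The main read of miR-467a-3p is the first 21 bases of that of miR-467d-3p. Both of these 3p reads matched 11 member hairpins exactly, while the main read of miR-467d-5p matched 1. The contrast of miR-467a with miR-467d therefore depends on how 3p reads were assigned to these names. miR-669a, taken with the names that share its reads, was the reverse of miR-467a, with 26.1 ± 7.34% in 5p and 3p above 5p in all 8 libraries. miR-466a-5p averaged 0.581 CPM against 23.6 CPM for miR-466a-3p/miR-466e-3p, and 3p was the higher in all 8 libraries. As many copies share a read, these are ratios of names and not of single hairpins.

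The 46 members had 25 different main seeds, and 47 seeds occurred in any of their reads. The top 8 seeds held 78.8% of the cluster's CPM. The seed AAGUGC of miR-467a-5p, miR-467b-5p and miR-467d-5p led with 180.6 CPM of cluster reads, and 86.1% of all R-sRNA CPM with this seed came from the cluster. This seed is that of the embryonic miR-290 and miR-302 families, as the mature sequence of miR-294-3p in RefSeq shows (seed in capitals):
miR-294-3p: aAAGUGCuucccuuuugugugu
miR-467a-5p: uAAGUGCcugcauguauaugcg

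RefSeq lists 8 mouse mature miRNAs with AAGUGC, of which 7 belong to the miR-290 and miR-302 families. No name of these families was present in the brain table, and the largest other source of the seed was miR-350-5p at 12.2 CPM. CAUAAC of miR-669a-3p/miR-669o-3p was next with 90.1 CPM, 94.7% of the seed's total, followed by UAGUUG of miR-669c-5p with 68.7 CPM, 97.2% of its total. GUUGUG of miR-669a-5p/miR-669p-5p had 44.0 CPM and CUUGUG of miR-669d-5p 25.6 CPM, with 95.9% and 93.4% from the cluster. For 8 of the 12 seeds with at least 10 CPM of cluster reads, more than 80% of the seed's total came from the cluster.

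The cluster's part was smaller for some other seeds, of 3p and of 5p strands. Among the 3p seeds it was high for CAUAAC, given above, and for UACAUA of miR-466a-3p/miR-466e-3p, at 85.0%. UAUACA was the main seed of 8 members, more than any other seed, but the cluster gave 39.1 of its 502.6 CPM, or 7.79%. The largest other source was the 3p strand of let-7, let-7a-1-3p/let-7c-2-3p, at 188.0 CPM. AUACAU, the seed of miR-466d-3p, had 38.3 CPM from the cluster, which was 74.8% of its total. AUGUGU of the 5p strands of miR-466 had 8.54 CPM from the cluster, or 5.48% of its total, the rest being mainly miR-1198-5p at 144.6 CPM.

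By seed viability the cluster lay on the nontoxic side. Its CPM-weighted mean was 73.1 ± 1.24 in het and 74.3 ± 0.837 in ko (SD, n = 4), and 71.9 to 75.0 over all libraries. All miRNAs together averaged 56.5 ± 0.464 in het and 56.3 ± 1.09 in ko, and the Mirg cluster 72.1 ± 0.928 and 72.1 ± 1.69. The score is a property of the seed, so these values describe which seeds were loaded and not toxicity in these brains. Of the cluster's CPM, 59.3% had a score over 80 and 5.75% a score under 40. The scores of the leading seeds were 81.9 for AAGUGC, 86.4 for UAGUUG, 84.2 for UAAGUG, 90.7 for AUACAU and 80.7 for UAUACA. Scores were lower for the miR-669 seeds CAUAAC with 64.7, CUUGUG with 67.4 and GUUGUG with 56.5, so miR-669 as a number averaged 70.1 ± 1.60 and miR-467 77.0 ± 1.30 (SD, n = 8).

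**Figure D3:**
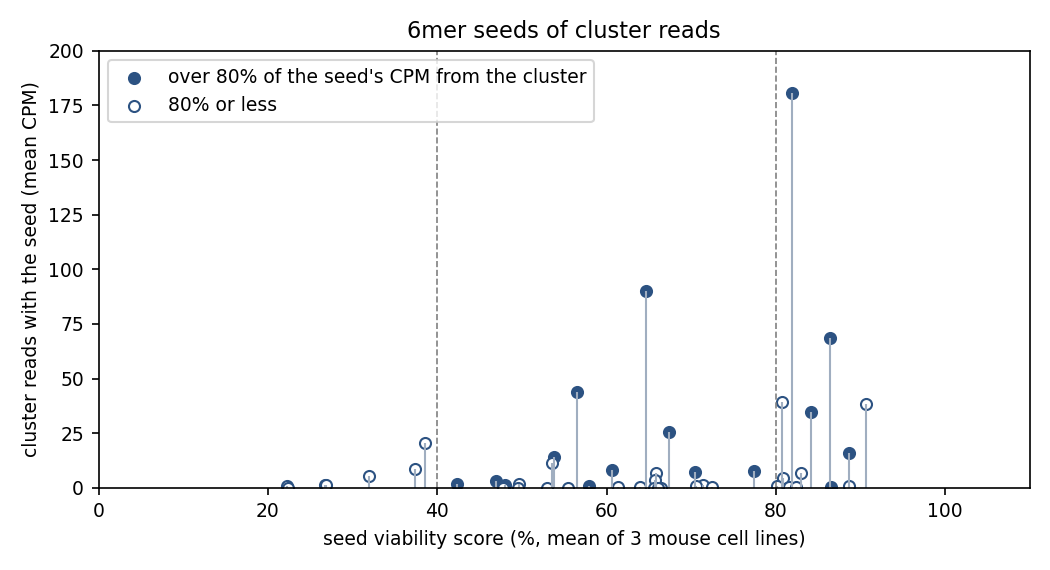
Mean CPM of cluster reads for each 6mer seed (y axis) against its seed viability score in percent, the mean of 3 mouse cell lines (x axis), with dashed lines at 40 and 80. The tallest stem, at 81.9 and 180.6 CPM, is the seed of miR-467a-5p, and the tallest stem left of 40, at 38.5 and 20.5 CPM, is its form with G at position 3. Filled points are seeds for which the cluster gave more than 80% of all reads.

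Most of the cluster's CPM under a score of 40 came from a seed that is the main seed of no member. AGGUGC, with a score of 38.5, held 20.5 CPM of cluster reads and 53.8% of their CPM under 40. It was carried by reads of miR-467a-5p and its relatives with G in place of A at position 3, counted from 1 at the 5′ end of the main read of miR-467a-5p (A3G). The reads are shown with the seed in capitals because they differ from the main read at that base:
miR-467a-5p, main read: uAAGUGCcugcauguauaugcg
miR-467a-5p, A3G: uAGGUGCcugcauguauaugcg
miR-467d-5p, A3G: uAGGUGCgcgcauguauaugcg

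The 22-base A3G read of miR-467a-5p was at 19.3, 27.5, 5.05 and 7.88 CPM in het replicates 1 to 4 and at 8.27, 16.1, 4.30 and 0 CPM in ko replicates 1 to 4. The main read was at 96.5, 118.3, 71.4 and 81.8 CPM in het and at 51.8, 103.2, 58.9 and 14.7 CPM in ko. The A3G read was therefore below the main read in all 8 libraries. Among all named reads of miR-467a-5p and miR-467b-5p with this start, G at position 3 made up 6.90%, 19.7%, 3.77% and 7.48% of reads in het and 10.7%, 12.2%, 6.74% and 0% in ko.
The lowest of these shares rested on 49 reads of ko replicate 4, in which no read had G and the 95% Wilson interval reached 7.27%, and the best covered on 4553 reads of ko replicate 2, where the 95% Wilson interval was 11.2% to 13.1%. The intervals of het replicate 2 (15.9% to 24.1%) and of het replicate 3 (2.22% to 6.34%) are those of the highest and the lowest het share. The group means were 9.47 ± 7.03% in het and 7.41 ± 5.45% in ko (SD, n = 4), a difference of -2.06 percentage points that did not pass an exact two-sided permutation test over the libraries (p = 0.657, the smallest this design allows being 0.0286). C or U at position 3 was found in 0 of the listed reads, among which sequences with fewer than 8 reads in total are missing.

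**Figure D4:**
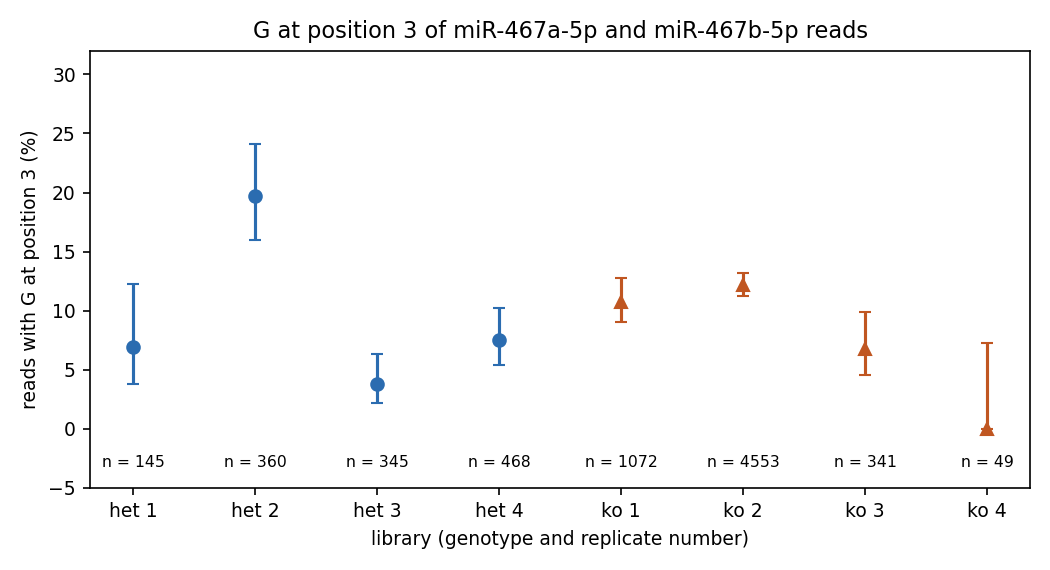
Share of miR-467a-5p and miR-467b-5p reads with G at position 3 in percent (y axis) in each library (x axis), het as circles and ko as triangles, with 95% Wilson intervals and the number of reads below each point. The share runs from 0% in ko replicate 4 to 19.7% in het replicate 2, and the points of the genotypes are interleaved.

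Most substitutions in these reads were at position 3. Of the substitutions in the 22-base main read of miR-467a-5p, A3G was seen in 480 reads, A2G in 15, G22A in 49 and G22U in 23, and all other substitutions in 0. Every listed sequence had at least 8 reads in total, so a rarer substitution would not be listed. Over all members, reads with a single mismatch before the last 3 bases were 26 sequences with 28.8 CPM, of which 19 sequences with 27.2 CPM were A-to-G changes. The G form was looked for as a 17-base word in 141767 GENCODE transcripts and found in 0 of them, and 11 member hairpins held the A form and 0 the G form. The genomic sequence outside annotated transcripts and the strains' own sequence were not searched.

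Other miR-467 5p names had the same form. The shares above and the next ones are of reads with this start, which is the shorter of 2 starts 1 base apart. For miR-467d-5p, G at position 3 was in 0%, 7.69%, 0% and 11.3% of reads in het replicates 1 to 4 and in 14.1%, 29.7%, 9.68% and 0% in ko replicates 1 to 4. The means were 4.75 ± 5.67% in het and 13.4 ± 12.4% in ko (SD, n = 4), and the groups overlapped. With reads that carry no miRNA name included, they were 8.91 ± 6.99% and 24.2 ± 13.4%. For miR-467e-5p the change turns the seed AAGUGU, with a score of 53.8, into AGGUGU, with a score of 42.3, and the share was 2.27 ± 4.55% in het and 14.4 ± 15.6% in ko. The ko mean came from 25% of 12 reads in ko replicate 3 and 30.6% of 36 reads in ko replicate 4, while ko replicates 1 and 2 were at 0.943% and 1.16%. For miR-467c-5p the share was 0% in the 2 het libraries with reads of this start, on 9 and 7 reads, and 31.0%, 38.3%, 0% and 0% in ko replicates 1 to 4. With this start, the exact two-sided permutation test gave p = 0.286 for miR-467d-5p and p = 0.171 for miR-467e-5p (both 0.429 after Benjamini-Hochberg adjustment over the 3 shares tested), and miR-467c-5p, with reads in 2 het libraries, was not tested. The 3 names rest on 943, 588 and 270 such reads in all 8 libraries, against 7333 for miR-467a-5p and miR-467b-5p.

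Reads starting 1 base earlier also held G at this base, which is position 4 there. Of these reads of miR-467e-5p, the G form made up 6 of 31 in het replicate 2, 21 of 181 in ko replicate 1 and 14 of 540 in ko replicate 2, and 0 in the other 5 libraries. Of those of miR-467c-5p it made up 4 of 10 in het replicate 3, 1 of 8 in het replicate 4, 23 of 37 in ko replicate 1 and 33 of 121 in ko replicate 2, and 0 in the other libraries with such reads. The G form of miR-467c-5p was thus found in both genotypes. Over both starts, the share for miR-467e-5p was 4.68 ± 6.58% in het and 9.31 ± 7.40% in ko (exact two-sided permutation test, p = 0.400), that for miR-467d-5p 5.79 ± 4.06% and 12.9 ± 11.1% (p = 0.314 by the same exact test), and that for miR-467a-5p and miR-467b-5p 9.23 ± 6.22% and 7.98 ± 5.43% (p = 0.771 by the same exact test, n = 4 in each group). For miR-467c-5p it was 9.24 ± 10.8% in the 3 het libraries with such reads and 19.3 ± 22.6% in ko, with no test. Adjusted over these 3 shares the exact p-values were 0.600, 0.600 and 0.771. No share passed the test with either set of reads, and whether the names differ in this contrast was not tested. Taking all R-sRNAs with the seed AGGUGC, the het libraries averaged 27.3 ± 21.8 CPM and the ko libraries 26.1 ± 14.1 CPM, with an adjusted limma p of 0.996. Without the reads of AGGUGC and AGGUGU, the het libraries had a mean cluster score of 74.2 ± 0.660 and the ko libraries of 75.5 ± 0.286. Both seeds were chosen after their values were seen.

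A second source of seed diversity was the position of the 5′ end. miR-467e-5p was split between reads starting 1 base apart, with 46.4% of its CPM in UAAGUG and 40.9% in AAGUGU, as its most abundant reads of each kind show (seed in capitals):
miR-467e-5p, longer start: aUAAGUGugagcauguauaugu
miR-467e-5p, shorter start: uAAGUGUgagcauguauaugug

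A shift of this kind also divided miR-467b-5p, with 62.1% in AAGUGC and 37.9% in UAAGUG, and miR-466a-3p/miR-466e-3p, with 62.0% in UACAUA and 38.0% in AUACAU. miR-466c-5p, whose most abundant single read has the less abundant of its seeds, had 53.4% in GAUGUG, with a score of 65.9, and 46.1% in AUGUGU, with a score of 37.4. By contrast, 97.6% of miR-669c-5p, 98.1% of miR-669a-5p/miR-669p-5p and 99.5% of miR-669d-5p carried the main seed. Over the cluster, 14.4 ± 2.67% of the CPM in het and 18.6 ± 2.42% in ko (SD, n = 4) had another seed than the main one of its name, and the groups overlapped. In all other miRNAs this share was 6.69 ± 0.482% and 6.94 ± 0.454%, and the cluster was above it in all 8 libraries. Without the G forms, the cluster shares were 11.1 ± 1.86% and 14.4 ± 2.51%.

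The comparison of ko with het asked whether loss of Rubicon, which restrains autophagy, changed the loading of these miRNAs in 5XFAD brain. No member passed an adjusted p of 0.05. Of the 14 members that averaged 10 CPM or more, 4 were higher and 10 lower in ko, and 0 passed in limma on log2(CPM + 1), where the lowest adjusted p of a member was 0.796. At an unadjusted p under 0.05 there were also 0. Over all 463 miRNAs tested, 1.3% passed the adjusted and 7.34% the unadjusted threshold. edgeR and DESeq2 on recovered reads called 0 of the 14, against 0.864% and 1.94% of all miRNAs. The median log2 fold change of the 14 was -0.22, beside -0.09 for all 463, of which 59.4% were lower in ko. In the Mirg cluster, 16 of 53 tested names were higher and 37 lower, 0 passed the adjusted threshold and the median was -0.12. The 95% intervals of the 14 members reached from -1.998, for miR-466c-5p, to 1.96, for miR-467a-3p, on the log2 scale. For members with such wide intervals, changes of a few-fold cannot be told from none. The member of smallest SE, miR-669a-5p/miR-669p-5p, had an interval from -1.02 to 0.56.

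**Figure D5:**
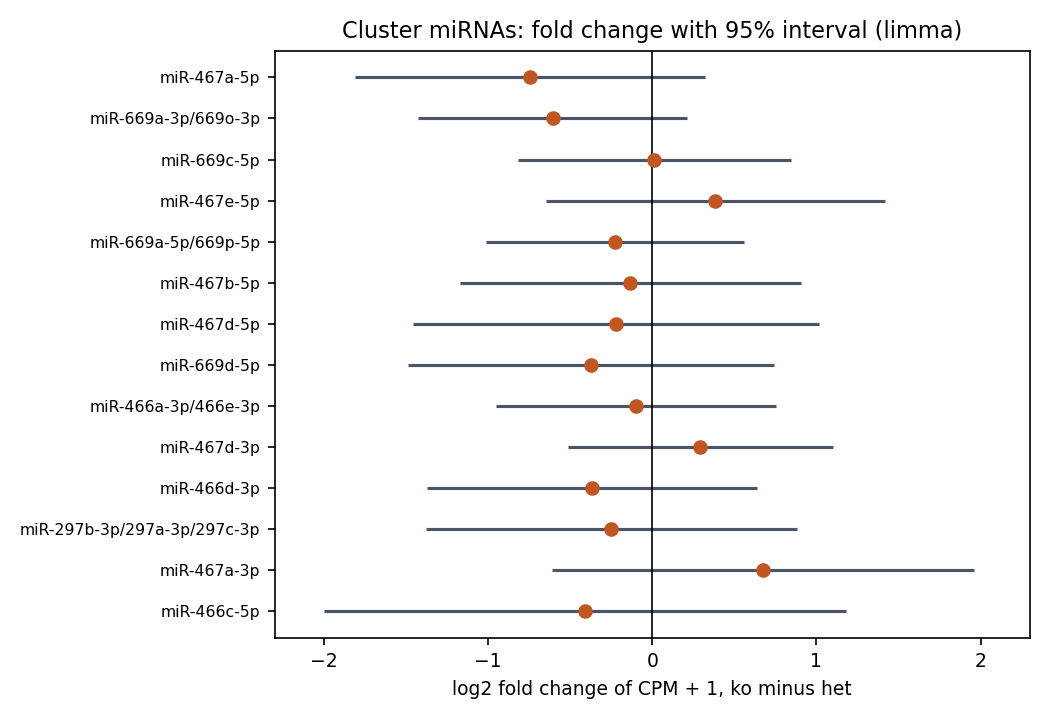
log2 fold change of CPM + 1, ko minus het (x axis), for the 14 tested cluster miRNAs (y axis), with points for the limma estimate and lines for its 95% interval. Every line crosses 0, and the point farthest below 0 is miR-467a-5p at -0.75.

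miR-467a-5p had a log2 fold change of -0.75 (SE 0.49, adjusted p = 0.796 in limma) and miR-669a-3p/miR-669o-3p of -0.61 (SE 0.38, adjusted p = 0.796). Both were lowest in ko replicate 4, without which the values came to -0.18 and -0.31. Without the 2 ko libraries over 5000000 reads miR-467a-5p came to -1.39 (adjusted p = 0.368 in limma). It then passed an unadjusted p of 0.05, as 10.3% of all miRNAs did. miR-669c-5p stood at 0.01 with a 95% interval from -0.82 to 0.84. The largest positive value was that of miR-467a-3p at 0.68 (SE 0.59), the other strand of miR-467a-5p. Its levels were 1.93, 17.2, 12.04 and 8.26 CPM in het and 12.7, 12.7, 14.2 and 13.7 CPM in ko, and the lowest value, in het replicate 1, rested on 1 read. Without that library the log2 fold change was 0.14, and that of miR-467e-5p, 0.38 with all libraries, was 0.68.

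miR-297c-5p, the leading 5p strand of miR-297, was below the level for the main test. It was at 15.4, 6.88, 6.99 and 21.0 CPM in het and at 1.15, 5.32, 3.44 and 2.94 CPM in ko. All 4 het libraries were above all 4 ko libraries, which held for this member alone among the 46 and for 3.13% of the 895 miRNA names. With a minimum mean of 1 CPM its log2 fold change was -1.65 (SE 0.58, adjusted p = 0.389 in limma). At that minimum, 0 of 32 members passed the adjusted threshold, beside 0.86% of 698 miRNAs, and 2 passed the unadjusted one, beside 7.45%. The other was miR-467c-5p, named after its values were seen, which was higher in ko by 1.73 (SE 0.66, adjusted p = 0.558). It was listed at 0 in het replicate 1.

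Counted by seed over all R-sRNAs, the result was alike. Of the 25 main seeds of members 14 reached 10 CPM, 3 were higher and 11 lower in ko, where 56.1% of all seeds were lower, and 0 passed an adjusted or an unadjusted p of 0.05 in limma, where 0.303% and 5.76% of 990 seeds did. AAGUGC was at 303.1, 268.2, 179.0 and 219.3 CPM in het and at 184.9, 250.8, 190.8 and 83.3 CPM in ko, with a log2 fold change of -0.53 (SE 0.33, adjusted p = 0.926). The groups overlapped, with ko replicate 4 lowest, and without it the log2 fold change was -0.20. The lowest adjusted p of these seeds, 0.849, was that of UGUAUG, the seed of the 5p strands of miR-297, at -0.80 (SE 0.43). UAAGUG, the seed of the longer start of miR-467e-5p, had the largest positive value at 0.52 (SE 0.33).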

How the data were processed

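R-sRNAs of 8 mouse brains were analysed, 4 het and 4 ko, grouped by the sample titles. The authors trimmed the reads (Trim Galore is listed) and used their SPOROS pipeline to compile them, remove rare and artificial sequences, and name them by BLAST. Versions and the genome build are not given in the sources used here. The deposited values are CPM, scaled by the authors to 1000000 reads per library. The deposited seed viability score is the authors' mean over 3 mouse cell lines from an earlier screen and was not measured in these mice.

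All values above 0 were whole multiples of the value of 1 read (100% within 0.1 read), which gave the depth of each library, 509839 to 19878054 reads. Every sequence had at least 8 reads in total, so sequences of shallow libraries are more easily missing. Reads carried no molecular identifiers, so the 95% Wilson intervals and the level of 3 reads cover counting error only.

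CPM were summed per miRNA name and per seed. In R 4.3.3, limma 3.58.1 (lmFit, then eBayes with a trend and robust setting) was fitted to log2(CPM + 1) of all names and seeds that averaged 10 CPM or more, which understates changes of low miRNAs, with Benjamini-Hochberg adjustment over all of them and both genotypes in one fit. edgeR 4.0.16 (quasi-likelihood, TMM) and DESeq2 1.42.0 were run on recovered reads as alternatives. Each library is labelled as a different mouse. The fits were tested on simulated data. Reads were matched to GENCODE M21 hairpins (GRCm38), and miR-294-3p was taken from RefSeq. Of the 46 names, 1 was found in the RefSeq mature table used. Python 3.11.15, pandas 2.3.3, scipy 1.17.1 and matplotlib 3.10.9 were used.

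The members and lists were chosen with earlier results of these data known. Named were the 12 members of highest mean CPM, those past the threshold, the 3 of smallest p in each direction, the leading 5p and 3p name of each number, the 8 leading seeds and the 2 seeds of smallest p in each direction. Partner strands and others outside this rule were named after their values were seen. Alternatives were pseudocounts of 0.1 and 10, minimum means of 1 and 100 CPM or none, median centring, a replicate block, leaving out each library or the 2 over 5000000 reads, and subsets of reads. The reads taken for the share of G at position 3 (by name and by start), and the viability without these seeds, were alternatives chosen after seeing the data.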

Additional observations from a re-analysis of the deposited data

Results flagged for a closer look

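In the het group miR-466c-5p stood apart in het replicate 2, at 34.4 CPM against 7.72 CPM in the next library and 3.11 CPM in the lowest. The gap was 0.852 of the range of the 4 libraries, above the critical value of Dixon's test for 4 values. There were 46 such groups among the members examined and 1 was apart, where chance gives about 1 in 20. Het replicate 2 was also the library with the highest sum of the cluster, 919.5 CPM.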

How the results depend on the processing

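For the 24 named miRNAs and seeds, 410 values under alternatives were computed, and 0 passed an adjusted p of 0.05 (lowest 0.368). The count of members past the threshold was 0 in every alternative, leaving out each library included (0 to 0), and so was that of seeds, although the number tested changed with the filter and the libraries. Of the named members, only miR-467a-5p was tested at a minimum mean of 100 CPM, and miR-466c-5p was not tested without het replicate 2 or ko replicate 2. The sign turned in 20 values of 5 results. After median centring these were miR-467b-5p at 0.087, miR-467d-5p at 0.0020, miR-466a-3p/miR-466e-3p at 0.12 and UAGUUG at 0.042 (log2). UAGUUG was at 0.069 in edgeR and at 0.072 in DESeq2. Without the 2 libraries over 5000000 reads UAGUUG was at 0.46 and miR-467b-5p at 0.20. Leaving out each library, miR-669c-5p ranged from -0.22 to 0.29, miR-467b-5p from -0.51 to 0.18, miR-467d-5p from -0.65 to 0.28, miR-466a-3p/miR-466e-3p from -0.35 to 0.12, UAGUUG from -0.27 to 0.23, miR-467a-5p from -1.09 to -0.18, miR-669a-3p/miR-669o-3p from -0.80 to -0.31, miR-467a-3p from 0.14 to 1.02, miR-467e-5p from 0.06 to 0.74, AAGUGC from -0.73 to -0.20 and UAAGUG from 0.33 to 0.67. The cause was not tested. The differences between the genotypes in summed level, 5p share and mean viability moved by less than 1 SD, pooled over both genotypes (120.1 CPM, 6.38 percentage points and 1.06), under every alternative, although those in 5p share and viability moved in places by more than the SD of ko alone. That in summed level ranged from -164 to -55.4 CPM without each library. That in 5p share, -0.56 percentage points, had no stable sign. It ranged from -3.95 without het replicate 3 to 2.28 without het replicate 1, and was -3.32 with reads of 1 miRNA name, 1.24 without het replicate 4, 0.38 without ko replicate 4 and 0.31 without dinucleotide repeat reads. That in mean viability, 1.15, stayed positive, from 0.75 without het replicate 2 to 2.14 with reads of at least 1 CPM on average. Same-numbered libraries of the genotypes shared only a number (correlations of their deviations 0.04, 0.29, -0.18 and 0.25, and 1 of 4 correlated best with its own number). With the replicate block 0 members passed, the lowest adjusted p being 0.630, and 2.16% of all miRNAs did. With all reads, also those without a name, G at position 3 of miR-467a-5p and miR-467b-5p was 9.08% on average in place of 8.44%, that of miR-467d-5p 16.6% in place of 9.06%, and that of miR-467c-5p 13.1% in place of 11.5%. With reads starting 1 base earlier included, the difference in this share between the genotypes kept its sign for all 4 sets of names, and that of miR-467e-5p was 4.63 in place of 12.1 percentage points. Depth limits the members below 5.79 CPM, the value of 3 reads in the shallowest library.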
